A study of Homo sapiens with 12 samples.

Results

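The genes described here were 30 genes of mitosis, taken as a named list and matched by symbol to the gene count table. All 30 were among its 17197 gene symbols, and all 30 passed the filter on low counts that left 13171 genes for testing. They were measured by RNA sequencing in AC16 cells, a proliferating human line made by fusing adult ventricular heart cells with transformed fibroblasts, transfected with a negative control siRNA or with siRNA against EP300, a histone acetyltransferase and transcriptional co-activator. The 4 groups had 3 libraries each, numbered 1 to 12 in the labels. The groups siNC (libraries 1 to 3) and siEP300 (4 to 6) received siRNA with no H2O2. The groups siNC.H2O2 (7 to 9) and siEP300.H2O2 (10 to 12) received the same siRNAs and, 12 h after transfection, hydrogen peroxide for 1 h. The labels give the peroxide dose as 200 mM, a unit that was not checked here, and place RNA isolation at 48 h. Transfection was in medium without serum in all 4 groups, and the labels place a change to complete medium after the peroxide step. Nothing in the labels tells separate cultures from repeat libraries of 1 culture, and each p-value therefore measures only the spread between these libraries, which may be technical.

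EP300 (ENSG00000100393.12, chr22:41091786-41180079, plus strand, GRCh38) was the check of the labels, and levels are CPM (counts scaled to a common library size), adjusted by the trimmed mean of M-values. It was at 101, 69.1 and 80.1 CPM in siNC, 36.3, 36.8 and 36.7 in siEP300, 59.9, 80.4 and 89.9 in siNC.H2O2, and 30.1, 26.9 and 26.5 in siEP300.H2O2. Every library titled siEP300 was below every siNC library, although the treatment field of the same 6 samples names MLF1 in place of EP300. Library totals ran from 16081437 to 19033679 assigned fragments. Of 13 cardiomyocyte marker genes in the table only 2, NPPB and GATA4, reached 1 CPM in siNC, whereas 11 of 12 fibroblast markers did. MYH6, MYH7 and MYL2, which encode myosin chains of the heart, had 0 reads in siNC, and TNNT2, which encodes cardiac troponin T, averaged 0.0873 CPM there. The summed level of the smooth muscle list ran from 405 to 433 CPM in siNC, 604 to 616 in siEP300, 558 to 629 in siNC.H2O2 and 709 to 874 in siEP300.H2O2, with 6 of 7 genes at 1 CPM or more in siNC. TAGLN carried most of this sum, at 270 CPM in siNC and 463 in siEP300, whereas CNN1 went from 44.97 to 15.98 and DES from 5.35 to 1.45. The epithelial list, with 5 of 7 genes at that level, ran from 356 to 398, 327 to 332, 575 to 627 and 447 to 524 CPM in the same order. The endothelial list ran from 37.8 to 45.2, 20.5 to 22.1, 34.95 to 39.97 and 16.2 to 17.8 CPM, and the leukocyte list from 34.5 to 43.5, 42.4 to 46.6, 53.1 to 55.2 and 68.2 to 81.0 CPM, with PECAM1 and PTPRC under 1 CPM on average in all 4 groups. In siNC 4 of 9 endothelial and 2 of 5 leukocyte genes reached 1 CPM. EGFL7 carried most of the endothelial sum, at 27.3 CPM in siNC and 6.41 in siEP300, whereas TEK went from 4.02 to 9.29. CD68 carried most of the leukocyte sum, at 31.3 CPM in siNC and 39.8 in siEP300, whereas CD14 went from 7.22 to 4.35. The part of these markers in the mitosis results was not tested.

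Mitosis is driven by cyclin-dependent kinase 1 with its A- and B-type cyclins, assisted by the Polo and Aurora kinases that build the spindle. The spindle checkpoint holds the anaphase-promoting complex back until each kinetochore is attached, after which securin and cyclin B are destroyed and the cell divides. Transcripts of most of these genes accumulate in G2 and mitosis, through CHR and CCAAT promoter elements bound by the MuvB complex with B-MYB or FOXM1 and by NF-Y. In bulk RNA, fewer or more cells in G2 or mitosis cannot be told apart from less or more RNA per cell.

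The promoters were read first because the members share elements that the choice of genes did not use. RefSeq windows (GRCh38.p14) of 300 bases, from 250 before to 50 after the start site, matched 24 members, and 1 window per gene was used. AURKA, TPX2, TTK, UBE2C, BIRC5 and FOXM1 were not matched. The CHR element, searched on both strands as TTTGAA or TTCGAA, was in 18 of 24 member windows (75%), against 16.6% of 27305 windows of all genes and 11.4% of the 10664 windows of genes tested here. CCAAT, searched on both strands and able to share bases with TTTGAA, was in 20 of 24 (83.3%), against 35.7% and 36.6%. Both were in 15 of 24 (62.5%), against 6.58% and 4.85%. No test of these shares was made, and a match is a description of letters, not of binding.

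Stretches from 7 members follow, cut to lie outside annotated exons and read 5′ to 3′ on the gene's strand, with CHR and CCAAT matches in capitals. CDC20, CCNB2, TOP2A, ASPM and KIF11 are shown because they held both elements in the window and rose with EP300 siRNA without H2O2, MKI67 because it held both and was not called in any comparison, and CENPE because it had the largest rise with EP300 siRNA and neither element.
CDC20, chr1:43358805-43358954, plus strand: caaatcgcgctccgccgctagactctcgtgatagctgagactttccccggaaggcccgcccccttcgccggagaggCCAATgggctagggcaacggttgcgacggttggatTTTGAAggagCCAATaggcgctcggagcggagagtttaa
CCNB2, chr15:59104928-59105077, plus strand: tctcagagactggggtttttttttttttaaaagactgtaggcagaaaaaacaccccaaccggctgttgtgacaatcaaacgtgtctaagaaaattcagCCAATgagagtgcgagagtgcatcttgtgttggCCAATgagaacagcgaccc
TOP2A, chr17:40417951-40418100, minus strand: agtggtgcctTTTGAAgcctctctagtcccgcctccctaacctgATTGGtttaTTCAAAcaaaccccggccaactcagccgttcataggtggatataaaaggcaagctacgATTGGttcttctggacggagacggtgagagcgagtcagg
ASPM, chr1:197146695-197146844, minus strand: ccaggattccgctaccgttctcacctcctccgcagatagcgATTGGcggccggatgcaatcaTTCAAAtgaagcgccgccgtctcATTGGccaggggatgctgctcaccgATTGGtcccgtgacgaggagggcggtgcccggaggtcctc
KIF11, chr10:92592980-92593129, plus strand: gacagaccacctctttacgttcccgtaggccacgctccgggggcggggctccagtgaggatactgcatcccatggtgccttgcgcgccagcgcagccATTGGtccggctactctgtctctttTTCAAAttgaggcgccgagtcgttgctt
MKI67, chr10:128126424-128126573, minus strand: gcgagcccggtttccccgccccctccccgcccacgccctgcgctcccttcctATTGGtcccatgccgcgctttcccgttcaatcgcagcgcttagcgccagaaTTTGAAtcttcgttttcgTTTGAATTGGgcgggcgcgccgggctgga
CENPE, chr4:103198410-103198559, minus strand: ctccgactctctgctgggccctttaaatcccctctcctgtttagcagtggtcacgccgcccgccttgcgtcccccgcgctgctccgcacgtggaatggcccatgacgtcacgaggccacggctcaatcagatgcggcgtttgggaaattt
The CHR match of CCNB2 lay closer to the start site than the stretch shown, at bases -29 to -24, and that of PLK1 was at the same place. HMMR had TTTGAA at -28 to -23 and again at -22 to -17. CCNB1 and KIF20A had CCAAT matches and no CHR match in their windows. The absence of a match says only that these letters are not in the window.

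Levels of different genes were compared on the deposited FPKM, which are per length. In siNC the members were abundant, with a median of 97.4 FPKM, and the median member was above 92.4% of the genes tested. UBE2C, the ubiquitin-conjugating enzyme of the anaphase-promoting complex, was highest at 803 ± 51.6 FPKM (SD, n = 3), and PTTG1, securin, followed at 540.4 ± 50.4 FPKM. CENPE, the kinetochore motor, was lowest at 11 ± 1.63 FPKM, close to the middle of all genes tested. The length implied by count and FPKM ran from 0.42 kb for PTTG1 to 10.9 kb for MKI67.

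The siNC group had the lowest mean CPM for 20 of the 30 genes. The highest mean was in siNC.H2O2 for 11, in siEP300 for 9, in siEP300.H2O2 for 8 and in siNC for 2. The share of all genes with each group lowest or highest was not computed, so these counts have no background. The ratio of the highest to the lowest group mean ran from 1.11 for BUB1B to 2.11 for CENPE. The mean log2 CPM over the 30 genes was 7.83 to 7.89 in the siNC libraries, 8.11 to 8.15 in siEP300, 8.05 to 8.10 in siNC.H2O2 and 8.09 to 8.14 in siEP300.H2O2. The siNC libraries were below all 9 others on this mean, which overlapped between siEP300 and siEP300.H2O2 and between siNC.H2O2 and siEP300.H2O2. The heatmap of the members by library shows these levels.

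**Figure D1:**
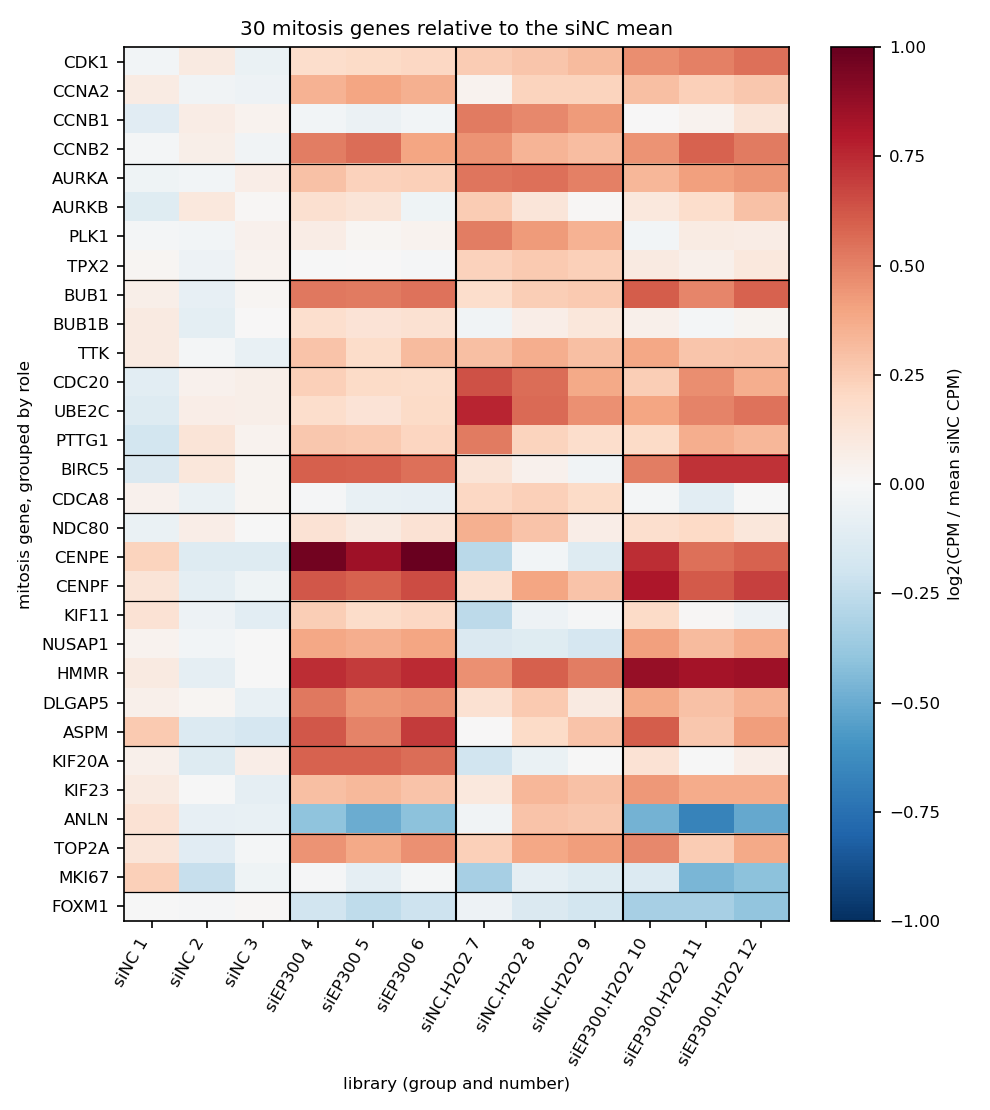
Each row is a mitosis gene, grouped by role, and each column a library, and the colour gives log2 of its CPM over the mean CPM of the 3 siNC libraries. Most rows are red outside siNC, CENPE and HMMR most of all in siEP300 and HMMR most of all in siEP300.H2O2, while ANLN and FOXM1 are blue in both EP300 siRNA groups.

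Changes were tested in edgeR's quasi-likelihood fit over all genes with Benjamini-Hochberg adjustment, and a gene was called at an adjusted p under 0.05. Fold changes are log2 of 3 against 3 libraries, or over all 4 groups for the interaction. Their SE is taken from the fit over all 12 libraries, so libraries outside a comparison also bear on it. A call said to be missed without a library was refitted with that library left out, the range of p covering the libraries named. With EP300 siRNA and no H2O2, 20 members rose and 2 fell, with a median of 0.25 against -0.0042 over all genes. In that comparison 61.5% of all genes were called, 30.1% higher and 31.4% lower. With EP300 siRNA in H2O2-treated cells, 9 rose and 7 fell (median 0.04 against -0.019), and 59% of all genes were called, 28.4% higher and 30.6% lower. The share of members called was 73.3% without and 53.3% with H2O2, to be read against those backgrounds, and without H2O2 the rises were 20 of the 22 calls.

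H2O2 with control siRNA raised 19 members and lowered 1 (median 0.24 against -0.0081), where 35.3% of all genes were called, 17.8% higher and 17.4% lower. H2O2 with EP300 siRNA raised 3 and lowered 3 (2 and 6 with no scaling factors or on the FPKM, 3 and 2 with RLE size factors, median 0.03 against -0.00038), where 31.1% of all genes were called, 15.9% higher and 15.1% lower. The interaction, the siRNA effect with H2O2 minus that without, was called for 7 members, each lower (median -0.23 against -0.00082), where 3.33% of all genes were called, 1.12% higher and 2.21% lower. The siRNA effect without H2O2, the H2O2 effect with control siRNA and the interaction share the siNC libraries, and other pairs of these comparisons share groups too.

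CDK1 and its cyclins rose with EP300 siRNA without H2O2 except for CCNB1. CDK1 was at 309, 336 and 300.1 CPM in siNC, 356, 359 and 364 in siEP300, 375, 381 and 392 in siNC.H2O2, and 436, 446 and 460.4 in siEP300.H2O2. These 4 groups did not overlap, and CDK1, the catalytic subunit of the mitotic kinase, was the one cyclin-CDK gene that rose in all 4 comparisons: by 0.19 ± 0.05 (adjusted p = 0.00486) and 0.23 ± 0.05 (adjusted p = 0.00168) with EP300 siRNA without and with H2O2, and by 0.28 ± 0.05 (adjusted p = 0.000741) and 0.31 ± 0.05 (adjusted p = 0.000369) with H2O2 on control and EP300 siRNA.

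CCNB1 was at 359.9, 408 and 398 CPM in siNC, 381, 373 and 383 in siEP300, 558, 544 and 523 in siNC.H2O2, and 389, 397 and 426 in siEP300.H2O2. For this B-type cyclin, which activates CDK1 for entry into mitosis, the 3 siNC.H2O2 libraries were above the other 9. Among those, siNC overlapped with both EP300 siRNA groups and siEP300 was below siEP300.H2O2. CCNB1 rose with H2O2 on control siRNA by 0.48 ± 0.06 (adjusted p = 1.49e-05), fell with EP300 siRNA in H2O2-treated cells at -0.42 ± 0.06 (adjusted p = 1.5e-05), and was not called with EP300 siRNA alone at -0.04 ± 0.06 (adjusted p = 0.584).

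CCNB2 was at 131, 139 and 129.9 CPM in siNC, 190.4, 197 and 175 in siEP300, 182, 169 and 165 in siNC.H2O2, and 182, 201 and 192 in siEP300.H2O2. The siNC libraries were below the other 9. CCNB2, the Golgi-associated B cyclin, rose by 0.49 ± 0.06 (adjusted p = 6.33e-06) with EP300 siRNA and by 0.37 ± 0.06 (adjusted p = 0.000306) with H2O2, and by 0.15 ± 0.06 (adjusted p = 0.039) with the siRNA under H2O2, where the libraries of the 2 groups overlapped. The last of these was not called without siNC.H2O2 8, siNC.H2O2 9, siEP300.H2O2 11 or siEP300.H2O2 12 (adjusted p = 0.0756 to 0.135).

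CCNA2 was at 219, 201 and 199.5 CPM in siNC, 263, 271 and 263 in siEP300, 212, 240.3 and 241 in siNC.H2O2, and 255, 243 and 248 in siEP300.H2O2. Cyclin A2, which acts from S phase to early mitosis, was higher in siEP300 than in any siNC library, a rise of 0.36 ± 0.06 (adjusted p = 7.34e-05). In siNC.H2O2 library 7 lay among siNC, and the rise there was 0.16 ± 0.06 (adjusted p = 0.0415), not called without siNC 2, siNC 3, siEP300 4, siEP300 5, siEP300 6, siNC.H2O2 8, siNC.H2O2 9, siEP300.H2O2 11 or siEP300.H2O2 12 (adjusted p = 0.0521 to 0.163).

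Of the Aurora and Polo kinases, AURKA and PLK1 moved most, and AURKB was not called in the fit over all 4 groups. AURKA was at 451, 458 and 488 CPM in siNC, 569.9, 547 and 550.3 in siEP300, 676, 683 and 660.1 in siNC.H2O2, and 588, 619 and 631 in siEP300.H2O2. The 4 groups of AURKA, the centrosome and spindle kinase, did not overlap. It rose by 0.25 ± 0.05 (adjusted p = 0.000466) with EP300 siRNA alone and fell with the siRNA under H2O2, at -0.14 ± 0.05 (adjusted p = 0.0295), the one member called in opposite directions in the 2 siRNA comparisons. The fall was not called without siNC.H2O2 7, siNC.H2O2 8, siEP300.H2O2 10 or siEP300.H2O2 11 (adjusted p = 0.0549 to 0.129). With H2O2 it rose by 0.53 ± 0.05 (adjusted p = 1.38e-06) on control siRNA and by 0.14 ± 0.05 (adjusted p = 0.0452) on EP300 siRNA, the second not called without siNC 2, siNC 3, siEP300 4, siEP300 5, siEP300 6, siNC.H2O2 8, siEP300.H2O2 11 or siEP300.H2O2 12 (adjusted p = 0.0524 to 0.165).

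PLK1 was at 207, 207 and 217 CPM in siNC, 221, 213 and 216 in siEP300, 299, 283 and 268 in siNC.H2O2, and 206, 222 and 221 in siEP300.H2O2. The Polo kinase of mitotic entry and exit was high in siNC.H2O2 alone, where its 3 libraries were above the other 9. Its rise with H2O2 on control siRNA was 0.43 ± 0.05 (adjusted p = 2.41e-05), its change with EP300 siRNA under H2O2 was -0.39 ± 0.05 (adjusted p = 1.98e-05), a fall, and the siRNA without H2O2 gave 0.04 ± 0.05 (adjusted p = 0.515).

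AURKB was at 106, 124 and 116 CPM in siNC, 129, 126 and 112 in siEP300, 138, 125 and 116 in siNC.H2O2, and 124, 130.4 and 141 in siEP300.H2O2. These libraries of AURKB, the kinase of the chromosomal passenger complex, overlapped between all pairs of groups compared. With gene length offsets AURKB was called higher with EP300 siRNA, at 0.24 without H2O2 (edgeR adjusted p = 0.000487) and 0.16 with it (adjusted p = 0.00994). TPX2, which activates AURKA on the spindle, ranged from 560.1 to 698 CPM over the 12 libraries and was highest in siNC.H2O2, with a rise of 0.24 ± 0.05 (adjusted p = 0.000808) there and a fall with EP300 siRNA under H2O2 at -0.16 ± 0.05 (adjusted p = 0.00683).

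The 3 spindle checkpoint kinases rose with EP300 siRNA without H2O2. BUB1 was at 148, 134 and 144 CPM in siNC, 205, 204 and 207 in siEP300, 161, 169 and 170.5 in siNC.H2O2, and 217, 199.5 and 214 in siEP300.H2O2. Both siEP300 groups were above both siNC groups for BUB1, a kinase that phosphorylates histone H2A at centromeres, with 0.53 ± 0.05 (adjusted p = 7.68e-07) without and 0.33 ± 0.05 (adjusted p = 7.61e-05) with H2O2. TTK, also called MPS1, rose by 0.26 ± 0.06 (adjusted p = 0.00114) with the siRNA and by 0.32 ± 0.06 (adjusted p = 0.000616) with H2O2 on control siRNA, and BUB1B, the checkpoint pseudokinase BUBR1, by 0.15 ± 0.06 (adjusted p = 0.0292) with the siRNA. The rise of BUB1B was not called without siNC 2, siNC 3, siEP300 4 or siEP300 6 (adjusted p = 0.0612 to 0.135).

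In the route of the anaphase-promoting complex, the activator CDC20, UBE2C and PTTG1 rose with H2O2 on control siRNA. UBE2C was at 334, 382 and 381 CPM in siNC, 414, 401 and 418 in siEP300, 618, 542 and 503 in siNC.H2O2, and 479.8, 516 and 532 in siEP300.H2O2. The siNC libraries were the lowest 3, and siNC.H2O2 and siEP300.H2O2 overlapped. UBE2C rose by 0.60 ± 0.07 (adjusted p = 2.31e-05) with H2O2 on control siRNA, the largest rise of the 30 there, and by 0.31 ± 0.07 (adjusted p = 0.00567) on EP300 siRNA. CDC20 rose by 0.53 ± 0.07 (adjusted p = 5.58e-05) and PTTG1 by 0.31 ± 0.09 (adjusted p = 0.0139) on control siRNA, and both rose with EP300 siRNA alone, by 0.21 ± 0.07 (adjusted p = 0.0227) and 0.25 ± 0.09 (adjusted p = 0.0265). Those siRNA rises were not called for CDC20 without siNC 1 or siEP300 4 (adjusted p = 0.0654 to 0.0863) or for PTTG1 without siNC 1, siEP300 4 or siEP300 5 (adjusted p = 0.0605 to 0.11). The H2O2 rise of PTTG1 was not called without siNC 1 or siNC.H2O2 7 (adjusted p = 0.0592 to 0.0649).

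The 2 partners of AURKB in the chromosomal passenger complex differed from each other. BIRC5 was at 142, 169.7 and 158 CPM in siNC, 237, 236 and 229.9 in siEP300, 171, 161 and 153 in siNC.H2O2, and 223, 258 and 258 in siEP300.H2O2. Both EP300 siRNA groups were above both control groups for BIRC5, survivin, by 0.58 ± 0.07 (adjusted p = 7.04e-06) without and 0.61 ± 0.07 (adjusted p = 4.93e-06) with H2O2. CDCA8 was at 117, 108 and 115 CPM in siNC, 113, 108 and 107 in siEP300, 131, 134 and 129.5 in siNC.H2O2, and 112, 106 and 113 in siEP300.H2O2. For CDCA8, borealin, the siNC.H2O2 libraries were above the other 9, and it fell with the siRNA under H2O2, at -0.25 ± 0.05 (adjusted p = 0.000622), and rose with H2O2 on control siRNA, at 0.21 ± 0.05 (adjusted p = 0.00482).

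At the kinetochore, CENPE and CENPF rose with EP300 siRNA in both settings. CENPE was at 98, 77 and 77 CPM in siNC, 164, 151 and 166 in siEP300, 69.6, 82.2 and 77 in siNC.H2O2, and 139.8, 123 and 127 in siEP300.H2O2. Every EP300 siRNA library of CENPE was above every control siRNA library, by 0.93 ± 0.09 (adjusted p = 5.52e-07) without H2O2, the largest rise of the 30, and 0.77 ± 0.09 (adjusted p = 4.72e-06) with it. It fell with H2O2 on EP300 siRNA, at -0.31 ± 0.09 (adjusted p = 0.0173), where the groups did not overlap. That fall was not called without siEP300 4, siEP300 6, siEP300.H2O2 11 or siEP300.H2O2 12 (adjusted p = 0.0587 to 0.0737).

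CENPF was at 281, 240.1 and 249 CPM in siNC, 395, 387 and 404 in siEP300, 285, 337 and 313 in siNC.H2O2, and 449, 392 and 412 in siEP300.H2O2. The EP300 siRNA libraries of CENPF, a large kinetochore and nuclear envelope protein, were again above all controls, by 0.62 ± 0.07 (adjusted p = 3.56e-06) and 0.42 ± 0.07 (adjusted p = 0.000151). NDC80, which binds microtubule ends at the outer kinetochore, was not called in either siRNA comparison and rose with H2O2 on control siRNA by 0.24 ± 0.07 (adjusted p = 0.0117), not called without siNC.H2O2 7 or siNC.H2O2 8 (adjusted p = 0.0507 to 0.0518). CENPF rose with H2O2 on control siRNA by 0.28 ± 0.07 (adjusted p = 0.008), not called without siNC.H2O2 8 (adjusted p = 0.0524).

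The 5 members grouped here as spindle motors and microtubule binders rose with EP300 siRNA without H2O2. Other groups also hold members that bind microtubules, among them NDC80, which was not called in that comparison. HMMR was at 116, 102 and 109 CPM in siNC, 182, 177 and 184 in siEP300, 149.7, 165 and 156 in siNC.H2O2, and 199.9, 194 and 197 in siEP300.H2O2. The 4 groups of HMMR, a spindle pole protein, did not overlap, and its rises were 0.73 ± 0.06 (adjusted p = 4.96e-08) with the siRNA alone, 0.33 ± 0.06 (adjusted p = 0.000139) with the siRNA under H2O2 and 0.52 ± 0.06 (adjusted p = 5.55e-06) with H2O2 on control siRNA.

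NUSAP1 was at 247, 237 and 240.4 CPM in siNC, 317, 310.1 and 317 in siEP300, 219, 222 and 215 in siNC.H2O2, and 320.4, 301 and 313 in siEP300.H2O2. NUSAP1, a microtubule bundler near chromosomes, was higher in both EP300 siRNA groups than in both control groups, by 0.38 ± 0.05 (adjusted p = 4.63e-06) and 0.51 ± 0.05 (adjusted p = 2.55e-07), and was the one member that fell with H2O2 on control siRNA, at -0.14 ± 0.05 (adjusted p = 0.0259). That fall was not called without siNC 1, siNC 3 or siNC.H2O2 9 (adjusted p = 0.0539 to 0.0592).

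DLGAP5 was at 164, 161 and 151 CPM in siNC, 229, 215 and 218 in siEP300, 176, 190.4 and 169 in siNC.H2O2, and 206, 195 and 202 in siEP300.H2O2. The 4 groups did not overlap for DLGAP5, a stabiliser of kinetochore fibres, with 0.48 ± 0.06 (adjusted p = 4.21e-06) for the siRNA alone and 0.17 ± 0.06 (adjusted p = 0.0176) under H2O2. The second was not called without siNC.H2O2 9 or siEP300.H2O2 10 (adjusted p = 0.0572 to 0.0647), nor was its rise of 0.17 ± 0.06 (adjusted p = 0.0314) with H2O2 on control siRNA without siNC 2, siNC 3 or siNC.H2O2 8 (adjusted p = 0.0574 to 0.161). ASPM was at 269, 204 and 199 CPM in siNC, 345, 316 and 364 in siEP300, 225, 256 and 273 in siNC.H2O2, and 340.2, 269 and 298 in siEP300.H2O2. ASPM, a spindle pole protein, was spread widely within its groups and rose by 0.61 ± 0.11 (adjusted p = 0.000259) with the siRNA alone. KIF11, the motor that pushes spindle poles apart, rose by 0.21 ± 0.08 (adjusted p = 0.0327) in the same comparison and was not called in the others. That rise was not called without siNC 2, siNC 3, siEP300 4, siEP300 5 or siEP300 6 (adjusted p = 0.0508 to 0.141).

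The cytokinesis genes went in different directions. KIF20A was at 273, 241 and 275 CPM in siNC, 396, 396 and 387 in siEP300, 229.8, 251 and 262 in siNC.H2O2, and 290.2, 262 and 275 in siEP300.H2O2. KIF20A, a kinesin of the central spindle, was high in siEP300 alone, where its 3 libraries were above the other 9, a rise of 0.58 ± 0.06 (adjusted p = 1.99e-06) with the siRNA and a fall with H2O2 on EP300 siRNA, at -0.51 ± 0.06 (adjusted p = 3.46e-05). Its value with the siRNA under H2O2 was 0.16 ± 0.06 (adjusted p = 0.05002), just outside the threshold.

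ANLN was at 712, 606 and 612 CPM in siNC, 486, 456 and 483 in siEP300, 626, 785 and 775 in siNC.H2O2, and 463, 406 and 451 in siEP300.H2O2. ANLN, the actin-binding scaffold of the cleavage furrow, was lower in every EP300 siRNA library than in every control siRNA library, a fall at -0.44 ± 0.09 (adjusted p = 0.000456) without and -0.73 ± 0.09 (adjusted p = 4.27e-06) with H2O2. KIF23, the other central spindle kinesin, rose by 0.30 ± 0.06 (adjusted p = 0.000684) with the siRNA alone and by 0.25 ± 0.06 (adjusted p = 0.0072) with H2O2 on control siRNA, the second not called without siNC 3 (adjusted p = 0.0524).

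Of the chromosome structure genes, TOP2A rose, and MKI67 was not called in the fit over all 4 groups. TOP2A was at 898, 762 and 812 CPM in siNC, 1126, 1069 and 1133 in siEP300, 969.6, 1078 and 1101 in siNC.H2O2, and 1149, 984 and 1074 in siEP300.H2O2. The siNC libraries of TOP2A, which untangles sister chromatids, were the lowest 3, with rises of 0.43 ± 0.07 (adjusted p = 0.000127) for the siRNA alone and 0.35 ± 0.07 (adjusted p = 0.0018) for H2O2 on control siRNA. MKI67 was at 566, 409 and 466 CPM in siNC, 477, 451 and 473 in siEP300, 382, 450.0 and 439 in siNC.H2O2, and 438, 351 and 361 in siEP300.H2O2. The first siNC library of MKI67, the proliferation marker that coats mitotic chromosomes, was the highest of the 12, and of the pairs of groups compared only siEP300 and siEP300.H2O2 did not overlap, with a difference of -0.29 ± 0.11 (adjusted p = 0.0533). That difference was called in 14 of 23 alternatives, among them DESeq2 at -0.28 (adjusted p = 0.041), limma-voom at -0.29 (adjusted p = 0.0484) and gene length offsets at -0.17 (adjusted p = 0.0046). With gene length offsets in edgeR, MKI67 was also called lower with EP300 siRNA, at -0.30 without H2O2 (adjusted p = 8.75e-06) and -0.31 with it (adjusted p = 6.78e-06), and with H2O2 on control siRNA, at -0.17 (adjusted p = 0.0057).

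FOXM1 was at 301, 299.9 and 305 CPM in siNC, 264, 253 and 261 in siEP300, 291, 273 and 266 in siNC.H2O2, and 239.6, 240.1 and 229.7 in siEP300.H2O2. FOXM1, the transcription factor that acts on many of these promoters, was the reverse of most of them: siNC was the highest group and siEP300.H2O2 the lowest, with no overlap between the 4. It fell with EP300 siRNA alone, at -0.22 ± 0.05 (adjusted p = 0.00123), and under H2O2, at -0.23 ± 0.05 (adjusted p = 0.00102). It also fell with H2O2 on EP300 siRNA, at -0.13 ± 0.05 (adjusted p = 0.0499), the last not called without siNC 3, siEP300 4, siEP300 5, siEP300 6, siNC.H2O2 8, siEP300.H2O2 10, siEP300.H2O2 11 or siEP300.H2O2 12 (adjusted p = 0.0574 to 0.157).

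Across the 2 siRNA comparisons, which share no library, 9 members rose in both: CDK1, CCNB2, BUB1, BIRC5, CENPE, CENPF, NUSAP1, HMMR and DLGAP5. ANLN and FOXM1 fell in both. Another 10 rose without H2O2 and were not called with it, AURKA rose without and fell with it, and CCNB1, PLK1, TPX2 and CDCA8 were not called without H2O2 and fell with it. AURKB, UBE2C, NDC80 and MKI67 were called in neither. Whether these classes differ was tested by the interaction alone. The share of all genes in each class was not computed, so these joint counts have no background beside them. The groups did not overlap, upward, for 22 members without and 10 with H2O2 (33.4% and 29.9% of all genes), and downward for 2 and 7 (34.7% and 31.8%).

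Of the members not called without H2O2, NDC80 and UBE2C each passed when at least 1 of the libraries siNC 2, siNC.H2O2 7 and siNC.H2O2 9 was left out on its own (adjusted p = 0.0242 to 0.0481). In all UBE2C was called higher there in 8 of 23 alternatives, among them RLE size factors, DESeq2 and gene length offsets. NDC80 was called in 3 of 23, among them gene length offsets. PLK1 passed only with gene length offsets (edgeR adjusted p = 0.0145), and CDCA8 only in limma on log2(FPKM + 1), as lower (adjusted p = 0.0476). Under H2O2, ASPM, CDC20, KIF20A, KIF23, NDC80 and UBE2C each passed when at least 1 of the libraries siNC 1, siNC 2, siNC 3, siNC.H2O2 8, siNC.H2O2 9 and siEP300.H2O2 11 was left out on its own (adjusted p = 0.00888 to 0.0486).

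The 7 members called in the interaction were PLK1, KIF20A, TOP2A, HMMR, AURKA, CCNB1 and CCNB2. Their interaction values were -0.43 ± 0.08 (adjusted p = 0.00671) for PLK1, -0.43 ± 0.09 (adjusted p = 0.0189) for KIF20A, -0.39 ± 0.07 (adjusted p = 0.00776) for AURKA and -0.40 ± 0.08 (adjusted p = 0.012) for HMMR. CCNB1 was at -0.38 ± 0.08 (adjusted p = 0.0171), TOP2A at -0.40 ± 0.10 (adjusted p = 0.0459) and CCNB2 at -0.34 ± 0.09 (adjusted p = 0.046). Their calls in the 2 siRNA comparisons differed. PLK1 (other than with gene length offsets) and CCNB1 had no called siRNA change without H2O2 and fell with it. AURKA rose without and fell with H2O2, and HMMR and CCNB2 rose in both by less under H2O2. KIF20A and TOP2A rose without H2O2 and were not called with it. Only the threshold parts CCNB2 from KIF20A here: under H2O2 they were at 0.15 (edgeR adjusted p = 0.039) and 0.16 (adjusted p = 0.05002). Of all 30 members 27 had an interaction below 0, where 50.2% of all genes did. No member had a called interaction above 0 in edgeR, DESeq2 or limma. The plot of the 2 siRNA effects shows the same shift.

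**Figure D2:**
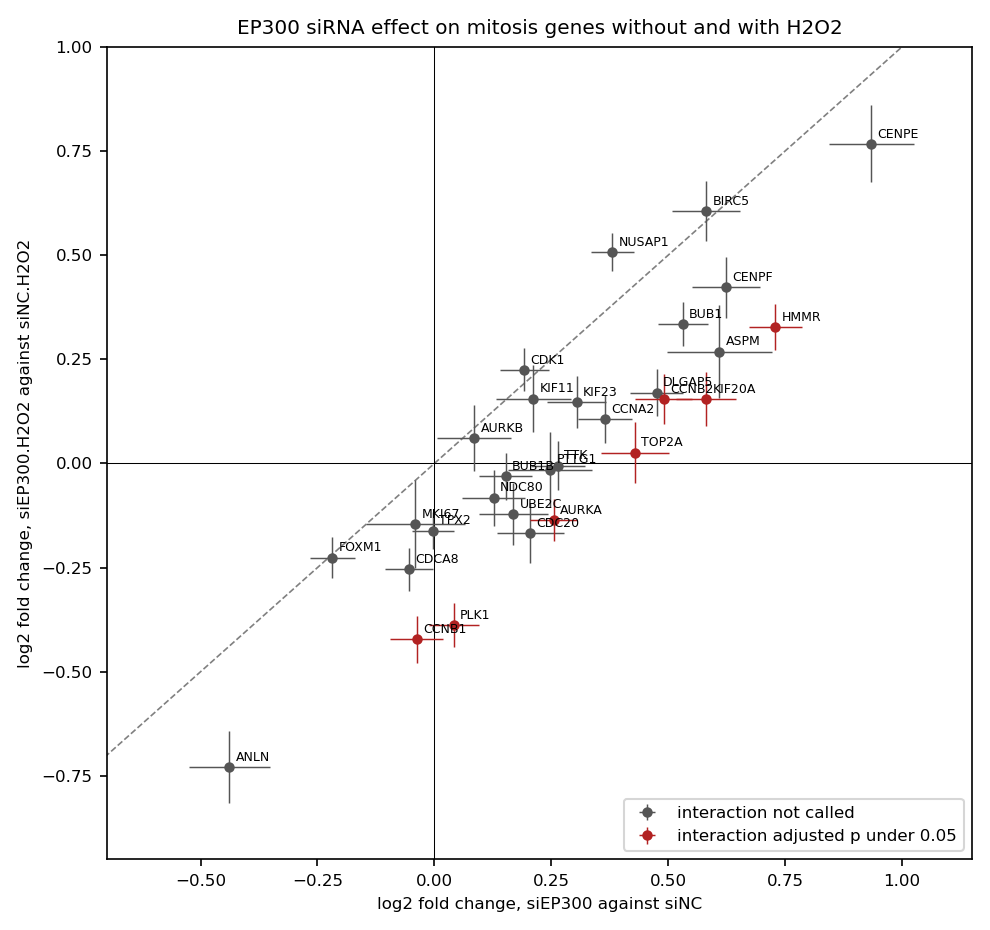
Each point is a mitosis gene, with the log2 fold change of EP300 siRNA without H2O2 on the horizontal and with H2O2 on the vertical axis; bars are SE and the dashed line marks equal effects. The points lie below the line for 27 of 30 genes, and the 7 with a called interaction are red.

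PLK1, AURKA and HMMR kept the interaction call when each library was left out in turn. The count of 7 became 3 without siEP300 4 or siEP300.H2O2 11, 4 without siEP300 5, siNC.H2O2 8 or siEP300.H2O2 12, and 17 without both siNC 1 and siNC.H2O2 7, a pair taken from an earlier look at these data. The share of all genes called fell too, from 3.33% to 1.48% without siEP300 4, 1.78% without siEP300 5 and 1.75% without siNC.H2O2 8. The shares for the other fits named are not given here. CCNB1 was not called without siEP300 4, siEP300 6 or siEP300.H2O2 11 (adjusted p = 0.0525 to 0.0564), and KIF20A without siEP300 4, siEP300 5, siNC.H2O2 8, siEP300.H2O2 11 or siEP300.H2O2 12 (adjusted p = 0.0529 to 0.061). TOP2A was not called without siNC 2, siNC 3, siEP300 4, siEP300 5, siEP300 6, siNC.H2O2 8, siNC.H2O2 9, siEP300.H2O2 11 or siEP300.H2O2 12 (adjusted p = 0.0792 to 0.123). CCNB2, nearest to the threshold, was not called without siNC 1, siNC 2, siNC 3, siEP300 4, siEP300 5, siNC.H2O2 7, siNC.H2O2 8, siEP300.H2O2 10, siEP300.H2O2 11 or siEP300.H2O2 12 (adjusted p = 0.0567 to 0.123). Of the members not called, ANLN, ASPM, CCNA2, CDC20, DLGAP5 and TTK each passed when at least 1 of the libraries siNC 1, siNC.H2O2 7 and siNC.H2O2 9 was left out on its own (adjusted p = 0.0191 to 0.044).

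**Figure D3:**
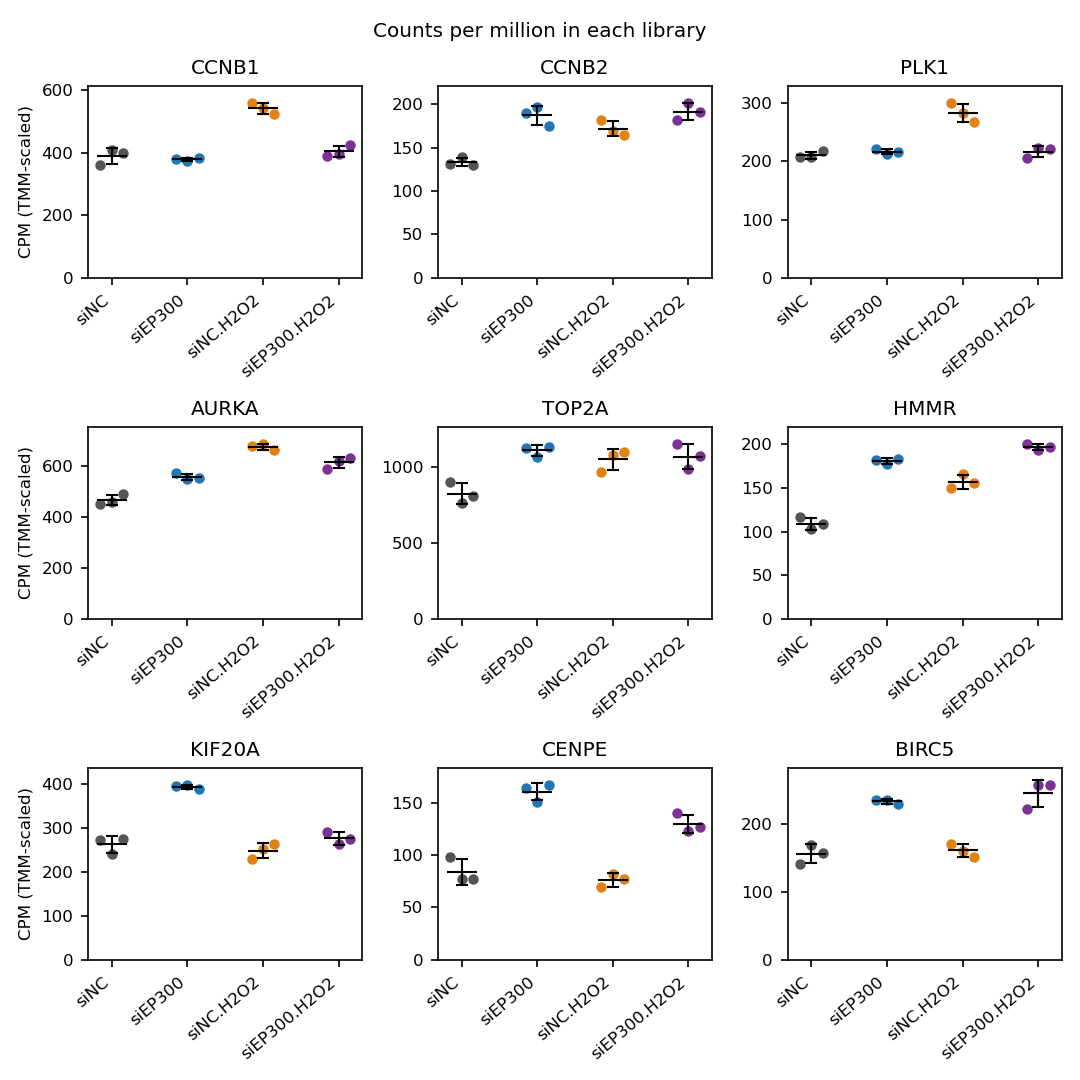
Points are the CPM of single libraries in the 4 groups, with the mean (long bar) and SD (n = 3) for the 7 genes with a called interaction and for CENPE and BIRC5. CCNB1 and PLK1 are high in siNC.H2O2 alone, KIF20A in siEP300 alone, and CENPE and BIRC5 in both EP300 siRNA groups.

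For H2O2, whose 2 comparisons also share no library, CDK1, AURKA and UBE2C rose on both siRNAs. Another 16 members rose on control siRNA and were not called on EP300 siRNA, among them CCNB1, PLK1, HMMR and CDC20, and CENPE, KIF20A and FOXM1 fell on EP300 siRNA and were not called on control siRNA. For these joint counts too the share of all genes was not computed. The difference between the 2 H2O2 effects is the interaction given above. Groups did not overlap, upward, for 18 members on control and 8 on EP300 siRNA (20.5% and 25.5% of all genes), and downward for 2 and 7 (21.2% and 24.3%). The 6 calls on EP300 siRNA became 3 without siEP300 4, siEP300 6, siEP300.H2O2 11 or siEP300.H2O2 12. The share of all genes called fell too, from 31.1% to 23.1% without siEP300 4 and 23.7% without siEP300 6. Of the members not called on control siRNA, ANLN, ASPM, FOXM1 and MKI67 each passed when at least 1 of the libraries siNC 1, siNC 2 and siNC.H2O2 7 was left out on its own (adjusted p = 0.00957 to 0.0454). On EP300 siRNA, KIF11 and MKI67 each passed when at least 1 of the libraries siNC 1, siNC 2, siNC.H2O2 7 and siEP300.H2O2 10 was left out on its own (adjusted p = 0.0136 to 0.0441).

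The H2O2 changes of the members differed by transcript length. On control siRNA the median was 0.37 for the 11 members under 2 kb, 0.19 for the 12 from 2 to 4 kb and 0.17 for the 7 of 4 kb and over, and on EP300 siRNA it was 0.09, 0.02 and -0.16. Spearman's rho of fold change with implied length over the 30 members was -0.49 on control and -0.60 on EP300 siRNA, against -0.019 and -0.16 across all genes tested. For EP300 siRNA it was 0.23 without and 0.25 with H2O2, against 0.23 and 0.15. These are descriptions across genes that share the same libraries.

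**Figure D4:**
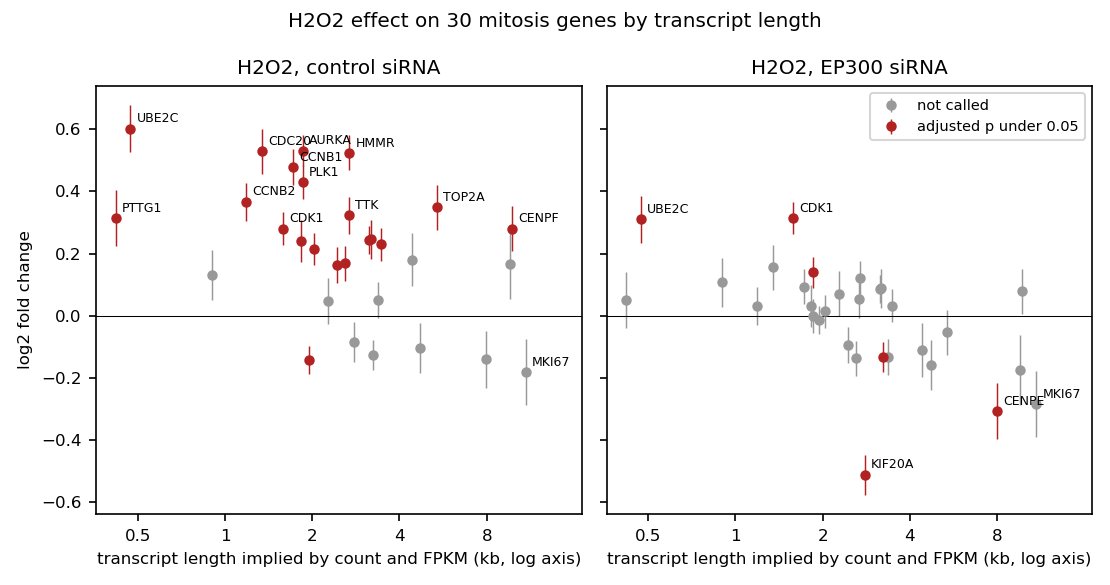
Each point is a mitosis gene at the transcript length implied by its count and FPKM (log axis, kb), with the log2 fold change of H2O2 ± SE on control siRNA (left) and on EP300 siRNA (right). The highest point is UBE2C at 0.60 on the left and CDK1 at 0.31 on the right, both under 2 kb, and MKI67 at the far right of each panel lies below 0; red points were called.

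The libraries of a group also differed from each other along transcript length. The leading axis of the differences within groups held 26.9% of their variance, and its gene loadings followed implied length across 11987 genes (rho 0.72). siNC library 1 (score 18.5) and siEP300.H2O2 library 10 (17.8) were at one end and siNC.H2O2 library 7 (-13.8) and siNC library 2 (-11.4) at the other. The longest and shortest members lay along it by length. The 7 of 4 kb and over correlated with the scores at 0.76 to 0.88 over the 12 libraries, and 10 of the 11 under 2 kb were below 0, down to -0.92. Members between these lengths lay at both ends, with BIRC5 (2.27 kb) at -0.94, the lowest of all, and CCNA2 (2.44 kb) at 0.85. Within groups 228 of the 435 pairs of members had a correlation above 0, with a median of 0.10. The members above their group mean ran from 8 of 30 in siEP300 library 5 to 25 in siEP300 library 4. Whether the members moved together apart from length was not tested. With length offsets in the fit, rho with length over the members was -0.47 and -0.41 for H2O2 on control and EP300 siRNA, -0.11 and 0.02 for EP300 siRNA without and with H2O2, and 0.31 for the interaction, which had been 0.12. In that fit the 30 members had 17 called interactions, each lower, where 8.44% of all genes were called. They had 11 called H2O2 changes on EP300 siRNA, where 40.9% of all genes were called, a count near that share. The part of this axis in the H2O2 results beyond these values was not tested.

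Reads of some members cannot be told from those of other genes. The strand of counting is not given in the sources used here, and exons of CCNA2, PLK1, KIF20A, ANLN and FOXM1 overlap exons on the opposite strand, of EXOSC9, ERN2, BRD8 and CDC23, KIAA0895 and ITFG2. BUB1B shares exons with the readthrough gene BUB1B-PAK6, and PTTG1 has the near-identical copy PTTG2 in the table.

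The wider set of 133 mitosis genes in 11 lists by complex, all of them tested, had rises and falls in every comparison. With EP300 siRNA 58 rose and 26 fell without H2O2 (median 0.11; 30.1% and 31.4% of all genes) and 52 rose and 29 fell with it (median 0.08; 28.4% and 30.6%). With H2O2 22 rose and 30 fell on control siRNA (median -0.02), where 17.8% of all genes rose and 17.4% fell, so the rises were near the share of all genes. On EP300 siRNA 8 rose and 23 fell (median -0.04), where 15.9% and 15.1% of all genes did.

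Genes of the same complexes outside the members also changed with the siRNA. ZW10, which recruits dynein to the kinetochore, rose by 1.53 ± 0.08 (adjusted p = 5.4e-10) without and 1.74 ± 0.08 (adjusted p = 2e-10) with H2O2, and SKA2 of the outer kinetochore by 0.80 ± 0.06 (adjusted p = 3.08e-08) and 0.97 ± 0.06 (adjusted p = 4.67e-09). ENSA, an inhibitor of the phosphatase that opposes CDK1, rose by 0.90 ± 0.06 (adjusted p = 9.03e-09) and 1.16 ± 0.06 (adjusted p = 6.83e-10). CENPN and CENPI of the inner kinetochore rose by 0.68 and 0.72 without H2O2, and 9 of the 18 genes of that list rose and 3 fell. In condensin 5 of 8 rose and 1 fell, NCAPG2 by 0.58. Of the mitotic kinesins 2 of 9 rose and 3 fell, with KIF20B at 0.76 and KIF2C at -0.43. These list counts are without H2O2, where 30.1% of all genes rose and 31.4% fell, and those of the kinesins were near these shares.

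With H2O2 on control siRNA 17.8% of all genes rose and 17.4% fell. The outer kinetochore list had 2 rises and 7 falls among 16, with ZWINT at -0.65 ± 0.06 (adjusted p = 7.32e-07). The spindle assembly list had 6 rises and 2 falls among 15, with NEK2 at 0.43 ± 0.05 (adjusted p = 3.01e-05) and FAM83D at 0.41 ± 0.05 (adjusted p = 1.59e-05). The checkpoint gene BUB3 rose by 0.59 ± 0.05 (adjusted p = 5.7e-07) and HJURP, the chaperone of the centromere histone, by 0.55 ± 0.06 (adjusted p = 4.87e-06). In the interaction the wider set had 1 higher and 5 lower calls. These were 4.51% of the set, near the 3.33% of all genes called (1.12% higher and 2.21% lower). The higher call was ZWINT at 0.54 ± 0.08 (adjusted p = 0.00207). Of the lower calls NEK2 was at -0.42 ± 0.08 (adjusted p = 0.00868), FAM83D at -0.38 ± 0.07 (adjusted p = 0.00831) and HJURP at -0.32 ± 0.08 (adjusted p = 0.0455). SPDL1 was at -0.28 ± 0.07 (adjusted p = 0.0412) and KIF4A at -0.28 ± 0.06 (adjusted p = 0.0313).

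Of 27 DNA replication genes, which act before mitosis, 21 fell with H2O2 on control siRNA (median -0.32, against 17.4% of all genes lower), with MCM6 at -0.57 ± 0.05 (adjusted p = 2.17e-07) and MCM5 at -0.61 ± 0.05 (adjusted p = 3.83e-07), where 19 of the 30 mitosis genes rose. With EP300 siRNA under H2O2, 18 of the 27 rose and 2 fell (28.4% and 30.6% of all genes). The interaction was higher in 6 (1.12% of all genes), RRM2 leading at 0.55 ± 0.07 (adjusted p = 0.000863), where the 7 mitosis calls were lower. No test between the lists was made.

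Of 22 MuvB and E2F regulators, 7 rose and 7 fell with EP300 siRNA alone, where 30.1% of all genes rose and 31.4% fell, and 11 rose and 6 fell under H2O2, where 28.4% and 30.6% did. Without H2O2 the list's 31.8% higher was near the share of all genes. RBL1, the p107 pocket protein, rose by 1.08 ± 0.08 (adjusted p = 2.27e-08) and TFDP1, a partner of the E2F factors, fell, at -0.89 ± 0.05 (adjusted p = 1.42e-09), without H2O2. E2F1 and E2F2 fell with H2O2 on control siRNA, at -0.62 ± 0.08 (adjusted p = 1.94e-05) and -0.58 ± 0.06 (adjusted p = 3e-06). Among 8 CDK inhibitors 5 fell and 1 rose in each siRNA comparison, to be read against the same shares of all genes. CDKN1A, p21, fell, at -1.90 ± 0.08 (adjusted p = 1.82e-10) and -1.51 ± 0.08 (adjusted p = 9.17e-10) with the siRNA without and with H2O2, and rose, at 1.68 ± 0.08 (adjusted p = 1.04e-09) and 2.07 ± 0.08 (adjusted p = 3.26e-10) with H2O2 on control and EP300 siRNA.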

How the data were processed

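The sources used here name no counting program, strand setting or annotation for the deposited table. Per the submitters' processing notes the tools were HISAT and Bowtie2 and the genome GRCh38.p13. The deposited table gives an estimated count and an FPKM value per gene symbol and library, made by the authors. Between 12% and 13.8% of the estimated counts were not whole, and they were rounded before testing. FPKM was used for levels between genes and for the length implied by count and FPKM.

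Counts were tested in R 4.3.3 with edgeR 4.0.16: genes passing filterByExpr, TMM scaling, and a quasi-likelihood fit of the 4 groups over all 12 libraries, with contrasts for the 2 siRNA effects, the 2 H2O2 effects and their interaction. Benjamini-Hochberg adjustment ran over all 13171 genes, with a threshold of 0.05. The scripts were tested on simulated counts. DESeq2 1.42.0, limma 3.58.1, other scalings, no filter, the FPKM, fits on the 2 groups compared, length offsets and leaving out libraries were tried as alternatives. Libraries of a group were compared by chi-square of their counts, which gave 1.78 to 18.1 per degree of freedom, so that no pair was within sampling noise and each counted as 1 replicate. The common biological coefficient of variation was 6.72%.

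The members and gene lists were chosen with earlier results of these data known. Members have per-library values where their adjusted p was among the 12 smallest in a siRNA comparison or the 5 smallest in another, and for 8 core genes. Of the other lists, up to 3 genes with the smallest adjusted p in a comparison were named. Gene positions are from GENCODE v29 (GRCh38), promoters from RefSeq (GRCh38.p14).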

Additional observations from a re-analysis of the deposited data

Results flagged for a closer look

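For 7 mitosis genes the effect of EP300 siRNA differed between cells with and without H2O2 by the interaction test in edgeR, which is a test of that difference itself. The difference in log2 fold change was -0.4299 for PLK1, -0.4258 for KIF20A, -0.4025 for TOP2A, -0.4021 for HMMR, -0.3907 for AURKA, -0.3849 for CCNB1 and -0.3362 for CCNB2. In each of the 7 the siRNA effect was the lower under H2O2. Adjusted p-values, libraries and the calls that rested on single libraries are given with the results above.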

How the results depend on the processing

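With 3 libraries a group, 1 library can decide a call. The count of members called stayed within 1.5 times for EP300 siRNA without and with H2O2 and for H2O2 on control siRNA under all alternatives run. For H2O2 on EP300 siRNA it was 6, and it became 12 with the 2 groups alone, 11 with gene length offsets, 13 without siNC library 1 and siNC.H2O2 library 7 (a pair taken from an earlier look at these data), and 3 to 7 with single libraries left out. Of all genes 31.1% were called there, 40.7% with the 2 groups alone and 40.9% with gene length offsets. The counts of 12 and 11 were near those shares. For the interaction the count of members was 7, and it became 17 with gene length offsets, 17 without those 2 libraries and 3 to 9 with single libraries left out. Of all genes 3.33% were called in the interaction, and 8.44% with gene length offsets. The share of all genes without those 2 libraries is not given here. The cause was not tested. The one change of sign among called values was PTTG1 with EP300 siRNA under H2O2, at 0.0996 (adjusted p = 0.0238) with gene length offsets. No paired analysis was possible because the titles number the libraries 1 to 12 and no number is shared between groups.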
